A study of Mus musculus with 24 samples.

Results

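The genes described here are 40 genes of DNA replication and cell division, out of 15946 genes named on the array. They were chosen by symbol, with older and newer synonyms counted as the same gene, and comprise 14 replication genes and 26 mitosis genes. The array held 57 probes for 38 of them. Ccnb1 and Cenpf, a mitotic cyclin and a kinetochore protein, had no annotated probe. A further 8 had probes that were not well above background on any array: Gmnn, Ccna2, Ccnb2, Kif11, Kif20a, Cenpe, Ttk and Ube2c. That left 30 measured genes, 13 of replication and 17 of mitosis, of which 23 were detected on all 24 arrays.

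RNA came from cultured mouse embryonic cortical neurons with or without a knockout of Atf4, which encodes a transcription factor of the amino acid and oxidative stress response. HCA is homocysteate, a glutamate homolog used to impose oxidative stress. The groups were knockout (KO) neurons with HCA (4 samples), wild-type (WT) neurons with HCA (4 samples), untreated KO neurons (8 samples) and untreated WT neurons (8 samples). The 24 samples were read on 24 Illumina Mouse Ref-8 bead arrays on 3 chips of 8 arrays, which are array carriers and not known to be separate cultures. Chip 1 held 4 untreated KO and 4 untreated WT arrays, and chips 2 and 3 together held 4 arrays from every group. The embryos' age, the knockout allele, the HCA dose and time, and whether replicates were separate cultures or animals are not given in these sources. P-values therefore measure the spread between these samples only. All values below are log2 intensities after background correction and quantile normalization, and a gene was called at a limma adjusted p under 0.05 over 8755 tested genes.

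Before a cell divides, the Mcm2 to Mcm7 helicase is loaded on origins by Cdc6 and Cdt1, the clamp Pcna holds the polymerases on DNA, and Rrm1, Rrm2 and Tyms supply deoxynucleotides. Mitosis genes come on later: Cdk1 drives entry, Top2a untangles sister chromatids, Aurka, Aurkb and Plk1 are spindle and chromosome kinases, and Cdc20 activates the anaphase-promoting complex. Neurons have left the cell cycle, while the progenitors and glia of the embryonic cortex still divide. These transcripts are commonly used to mark dividing cells, which were not counted here. In bulk RNA, fewer dividing cells and less of these RNAs per cell cannot be told apart.

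The promoters of the 2 replication and the 2 mitosis genes with the lowest p between untreated genotypes on chips 2 and 3 are printed because the classes are compared throughout. They are the 250 bases before the RefSeq start site on mouse GRCm38.p6, read 5′ to 3′ on the gene's strand. Capitals mark 3 motifs on either strand: CCAAT, the CHR element (TTTGAA or TTCGAA) and an E2F element (TTCCCGC or TTGGCGC).
Mcm5, chr8:75109259-75109508, plus strand: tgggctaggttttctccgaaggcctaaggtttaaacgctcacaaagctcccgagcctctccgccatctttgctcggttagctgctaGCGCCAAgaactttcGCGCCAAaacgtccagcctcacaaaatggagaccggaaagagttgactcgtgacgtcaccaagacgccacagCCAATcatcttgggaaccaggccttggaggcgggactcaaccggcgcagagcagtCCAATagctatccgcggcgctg
Rrm2, chr12:24708004-24708253, plus strand: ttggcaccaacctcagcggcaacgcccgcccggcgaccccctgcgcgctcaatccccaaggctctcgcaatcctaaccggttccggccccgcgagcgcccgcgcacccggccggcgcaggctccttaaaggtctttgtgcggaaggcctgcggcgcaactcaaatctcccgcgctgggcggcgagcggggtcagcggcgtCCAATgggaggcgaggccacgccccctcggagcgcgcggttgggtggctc
Top2a, chr11:99024190-99024439, minus strand: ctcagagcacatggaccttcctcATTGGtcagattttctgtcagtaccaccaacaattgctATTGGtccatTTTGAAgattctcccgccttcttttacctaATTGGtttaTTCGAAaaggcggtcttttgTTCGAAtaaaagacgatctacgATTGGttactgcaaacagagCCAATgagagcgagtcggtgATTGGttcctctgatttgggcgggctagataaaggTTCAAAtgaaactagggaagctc
Kif2c, chr4:117178773-117179022, minus strand: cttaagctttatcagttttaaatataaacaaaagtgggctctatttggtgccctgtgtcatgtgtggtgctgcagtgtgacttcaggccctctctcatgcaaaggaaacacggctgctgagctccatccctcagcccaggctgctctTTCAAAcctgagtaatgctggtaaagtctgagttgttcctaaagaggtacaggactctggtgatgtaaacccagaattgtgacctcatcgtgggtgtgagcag
Of the 40 genes, 33 had a RefSeq promoter entry (250 bases before to 50 after the start), and Kif20a, Mcm4, Aurkb, Foxm1, Tpx2, Ccna2 and Gmnn had none. Mcm5 held E2F letters at -164 and -149 from the start and CCAAT at -77, -22 and 7. Top2a held CHR letters at -179, -140, -120 and -23 and CCAAT letters at 6 positions. Rrm2 held 1 CCAAT at -50, and Kif2c held 1 CHR at -103.

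The E2F letters were in 58.3% of replication promoters (7 of 12) and in 14.3% of mitosis promoters (3 of 21), against 7.79% of the promoters of all 27025 genes. CHR letters ran the other way, in 16.7% of replication promoters (2 of 12, Mcm2 and Mcm7) and 81.0% of mitosis promoters (17 of 21), against 21.7% of all genes. CCAAT was in 66.7% of replication promoters, 85.7% of mitosis promoters and 41.1% of all genes. CCAAT and CHR stood together in 16 of 21 mitosis promoters (76.2%), in 2 of 12 replication promoters (16.7%) and in 9.65% of all. The E2F letters overlap a CCAAT only where GCGCCAA is followed by T. A match is a run of letters in a window, and its absence says nothing about binding of a factor.

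**Figure D1:**
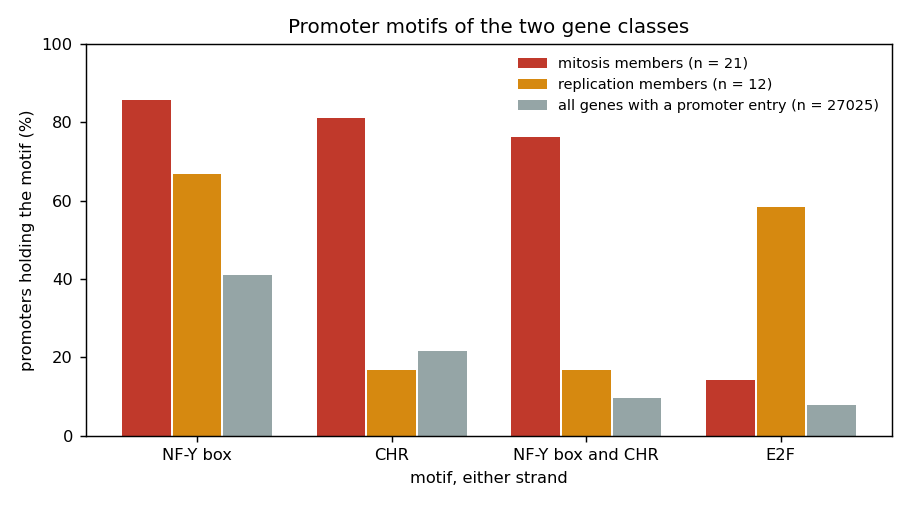
Share of promoter windows that hold each motif (percent, vertical axis; the NF-Y box is CCAAT) for the mitosis genes (n = 21), the replication genes (n = 12) and all genes with a RefSeq promoter (n = 27025). CHR letters stand in 81.0% of mitosis promoters and E2F letters in 58.3% of replication promoters.

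The Atf4 probe checks the genotype labels. On chips 2 and 3 it lay at 4.74 to 4.82 in KO with HCA and 10.31 to 10.78 in WT with HCA, and at 4.87 to 5.30 in untreated KO and 9.90 to 10.09 in untreated WT. On chip 1 it lay at 4.72 to 4.91 in untreated KO and 9.68 to 10.33 in untreated WT. It was detected on every WT array and on no KO array, so each array matched its genotype label. Mean raw signal per array was 745 to 983 on chip 1, 342 to 537 on chip 2 and 296 to 669 on chip 3, and 36.6% to 47.9% of probes were detected. No pair of arrays held identical values. Among 10 neuron markers, 7 were measured (Tubb3, Map2, Syt1, Stmn2, Nefm, Dcx and Gap43), while Snap25 and Nefl were detected on no array and Rbfox3 had no probe.

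In untreated neurons on chips 2 and 3, most cell cycle genes were lower in KO than in WT. The test called 26 of the 30 measured genes lower and 0 higher, where 10.6% of all 8755 genes were called lower and 9.79% higher. By class, 11 of 13 replication genes and 15 of 17 mitosis genes were called lower. The median log2 difference, KO minus WT, was -0.83 for replication genes (1.78-fold lower) and -1.08 for mitosis genes (2.11-fold lower), against 0.03 over all genes. For 26 genes all 4 KO arrays lay below all 4 WT arrays, a pattern found in 10.9% of all genes.

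Among the replication genes, Rrm2, the regulated subunit of ribonucleotide reductase, had 7.47, 7.29, 7.20 and 7.10 on the KO arrays and 8.42, 8.51, 8.56 and 8.46 on the WT arrays. The groups did not overlap, and the difference was -1.22 ± 0.09 (SE, 2.34-fold lower, limma adjusted p 1.19e-06). Mcm5, a helicase subunit, had 10.01, 9.90, 9.83 and 9.96 in KO and 10.97, 10.87, 10.99 and 11.13 in WT, a difference of -1.06 ± 0.08 (2.09-fold lower, limma adjusted p 5.87e-07). Every KO array again lay below every WT array.

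Mcm2, another subunit of the same ring, had 8.05, 8.28, 8.34 and 8.10 in KO and 9.02, 9.08, 9.21 and 9.30 in WT (-0.96 ± 0.11 SE, 1.94-fold lower, limma adjusted p 2.45e-05). Mcm4 had 10.31, 10.08, 10.17 and 10.26 in KO and 10.88, 11.05, 10.95 and 11.07 in WT (-0.78 ± 0.09 SE, 1.72-fold lower, limma adjusted p 4.61e-05). Neither gene's groups overlapped. Mcm6 (-0.93), Cdc6 (-0.82), Cdt1 (-0.52), Rrm1 (-0.96) and Tyms (-0.83) were called lower with limma adjusted p of 0.00152 or below. Mcm3 was detected on 0 KO and 3 WT arrays here and was at least 1.44-fold lower (limma adjusted p 0.0105). Ccne1, the G1 cyclin E1, was called too (-0.61 ± 0.17 SE, limma adjusted p 0.0216) but was detected on 0 KO and 2 WT arrays, so no fold is given.

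The 6 mitosis genes with the lowest p were Top2a, Kif2c, Cdk1, Cenpa, Prc1 and Birc5. Top2a had 8.40, 8.40, 8.57 and 8.20 on the KO arrays and 9.82, 9.66, 9.55 and 9.93 on the WT arrays, or -1.35 ± 0.10 (SE, 2.55-fold lower, limma adjusted p 7.16e-07). Cdk1 had 8.25, 8.12, 8.24 and 7.79 in KO and 9.47, 9.50, 9.34 and 9.52 in WT, or -1.36 ± 0.11 (2.56-fold lower, limma adjusted p 1.52e-06). In both genes the highest KO array lay below the lowest WT array. Kif2c, a kinesin that takes microtubules apart at centromeres, had 7.10, 6.66, 7.08 and 6.92 in KO and 8.21, 8.46, 8.46 and 8.68 in WT, or -1.51 ± 0.12 (2.85-fold lower, limma adjusted p 1.44e-06).

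Cenpa, the centromeric histone, had 10.54, 10.41, 10.61 and 10.54 in KO and 11.60, 11.41, 11.49 and 11.49 in WT, or -0.97 ± 0.08 (SE, 1.96-fold lower). Prc1, which bundles the central spindle, had 10.73, 10.43, 10.50 and 10.55 in KO and 11.41, 11.43, 11.41 and 11.53 in WT, or -0.89 ± 0.08 (1.85-fold lower). Birc5, a passenger protein that works with Aurkb, had 8.41, 8.37, 8.43 and 8.50 in KO and 9.46, 9.27, 9.43 and 9.79 in WT, or -1.06 ± 0.10 (2.09-fold lower). Limma adjusted p was 2.80e-06, 4.49e-06 and 8.85e-06 for these 3 genes, and none of their groups overlapped.

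The other called mitosis genes were Aurka (-1.08), Aurkb (-1.57), Plk1 (-1.01), Mki67 (-1.07), the Aurka activator Tpx2 (-0.76), the spindle protein Nusap1 (-1.09), the checkpoint kinase Bub1b (-1.63), Cdc20 (-1.18) and the midbody kinesin Kif23 (-1.64). Kif23 had the widest spread of them, with 6.62 to 8.51 in KO and 9.16 to 9.69 in WT and an SE of 0.46. Aurkb and Bub1b were each detected on 3 of the 4 KO arrays.

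The 4 genes not called were Mcm7 (0.02 ± 0.07 SE, limma adjusted p 0.903), Pcna (-0.44 ± 0.18, 0.103), the transcription factor Foxm1 (-0.53 ± 0.26, 0.180) and the checkpoint kinase Bub1 (-0.05 ± 0.31, 0.935). Bub1 was detected on 1 KO and 1 WT array, near the limit of the assay. In 4 genes, Mcm7, Tyms, Mcm6 and Mki67, some measured probes were called and others were not. For Mcm7 the brightest probe had 10.40, 10.41, 10.30 and 10.36 in KO and 10.41, 10.38, 10.17 and 10.44 in WT, while a second, dimmer probe had 7.32, 7.79, 7.64 and 7.74 in KO and 7.94 to 8.37 in WT. That second probe differed by -0.56 ± 0.12 (SE, limma adjusted p over probes 0.00427), so the level of Mcm7 depends on the probe read.

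For Tyms, 2 probes were lower in KO (-0.83 and -0.91, both called over probes), and the dimmest of the tested ones had 6.62, 6.60, 6.34 and 6.71 in KO and 6.38, 6.95, 5.79 and 6.07 in WT (0.27 ± 0.27 SE, not called). For Mcm6, the brightest probe was called, and a second one had 9.36, 8.10, 7.40 and 8.51 in KO and 9.81, 8.54, 8.42 and 9.40 in WT (-0.70 ± 0.44 SE, limma adjusted p over probes 0.311). For Mki67, the brightest probe had 9.19, 8.70, 9.11 and 9.01 in KO and 10.24, 9.82, 10.06 and 10.18 in WT, while a dim second one, detected on 5 of the 24 arrays, had 5.75, 5.59, 5.70 and 6.28 in KO and 5.85, 6.33, 6.10 and 5.76 in WT (-0.18 ± 0.15 SE, limma adjusted p over probes 0.458). The groups overlapped on the second probe and not on the first. The 3 probes of Birc5 differed by -1.06, -1.15 and -1.11, the 3 of Cdc20 by -1.18, -0.70 and -1.37, and the 2 of Rrm2 by -1.22 and -1.20, each called over probes.

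Chips 2 and 3, taken apart with 2 arrays a group each, gave like values. On chip 2 the median difference was -0.78 for replication and -1.03 for mitosis genes, and on chip 3 it was -0.97 and -1.15. Centring each array on its median, in place of quantile normalization, called 20 of the 30 genes lower, and 203 of all 8755 genes. Class medians were then -0.67 and -0.90, with 0.13 over all genes. Of all called genes, 52.0% were lower in KO with quantile normalization and 69.8% with median centring.

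**Figure D2:**
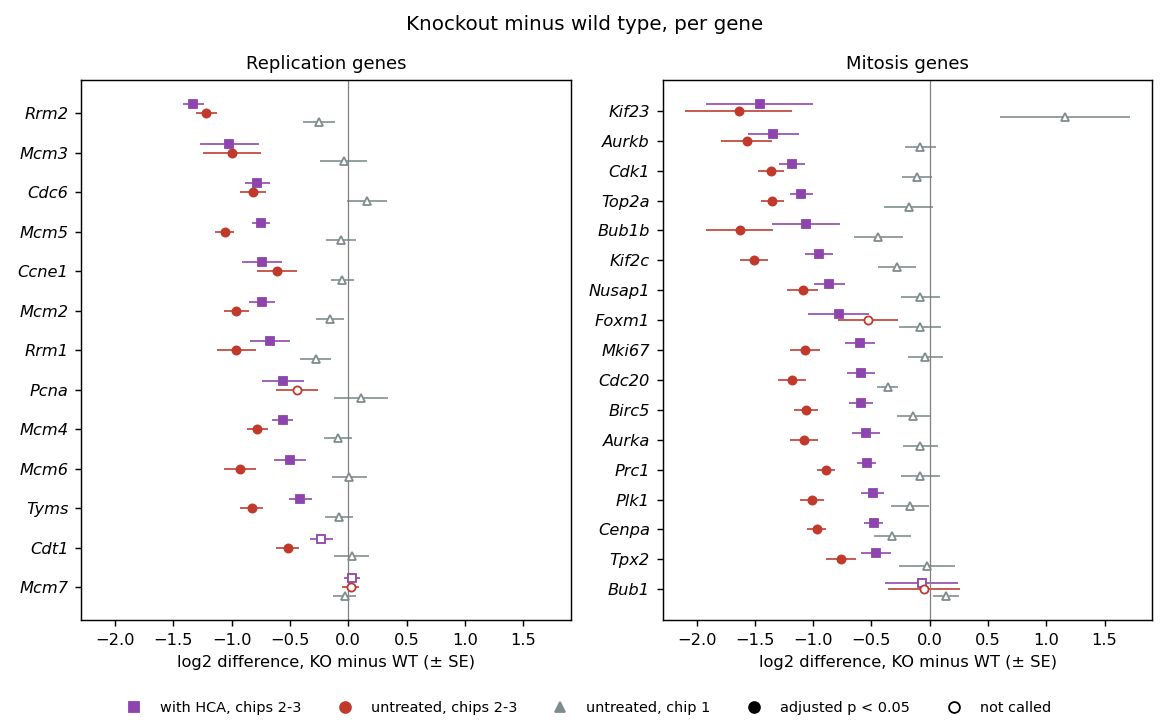
Log2 difference, KO minus WT, of each measured replication gene (left) and mitosis gene (right), with bars of 1 SE: squares with HCA and circles untreated on chips 2 and 3 (limma, 4 KO and 4 WT arrays each), triangles untreated on chip 1 (4 and 4). Filled symbols passed adjusted p under 0.05. On chips 2 and 3 the untreated values reach -1.64, and on chip 1 no gene was called.

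On chip 1, the same untreated comparison called 0 of the 30 genes in either direction, where 0.320% of all genes (28) were called lower and 0.0343% higher. The median difference was -0.05 for replication and -0.08 for mitosis genes, against 0.01 over all genes. Without KO replicate 1 these medians were 0.01 and 0.04, and without KO replicate 3 they were -0.10 and -0.18. The difference was negative for 24 of the 30 genes and for 4144 of all 8755 genes. At an unadjusted limma p under 0.05 there was 1 gene, Cdc20, with 716 of 8755 among all genes. Cdc20 had 9.16, 9.47, 9.50 and 9.35 in KO and 9.77, 9.80, 9.60 and 9.74 in WT (-0.36 ± 0.09 SE, limma adjusted p 0.316). It was the one cell cycle gene whose 4 KO arrays all lay below the 4 WT arrays, a pattern found in 2.48% of all genes.

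The 4 genes set out above show how the chips differed. On chip 1, Cdk1 had 8.99, 9.40, 9.47 and 9.48 in KO and 9.64, 9.27, 9.40 and 9.46 in WT (-0.11 ± 0.13 SE). Rrm2 had 8.63, 9.03, 9.27 and 8.98 in KO and 9.16, 9.40, 9.02 and 9.35 in WT (-0.25 ± 0.14 SE). In each gene the KO arrays overlapped the WT arrays, with KO replicate 1 the lowest. Top2a had 9.19, 9.57, 9.72 and 9.42 in KO and 9.98, 9.01, 9.87 and 9.76 in WT (-0.18 ± 0.21 SE). Mcm5 had 10.56, 10.89, 11.19 and 10.91 in KO and 10.97, 11.01, 10.81 and 11.01 in WT (-0.06 ± 0.13 SE). Here too the groups overlapped.

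Of the rest, the chip 1 differences ran from -0.44 for Bub1b (± 0.21 SE) to 1.16 for Kif23 (± 0.56 SE), and none was called. The Kif23 value rested on WT replicates 2 and 3 at 6.91 and 6.65, where the other WT arrays had 9.28 and 9.01 and the KO arrays 8.78 to 9.49. The second Mcm6 probe likewise read 4.94 on WT replicate 2. The 2 Mcm7 probes gave -0.03 and 0.02 on this chip, and the 3 Tyms probes gave -0.08, -0.36 and -0.19.

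The difference between the chips was tested directly, as the untreated genotype difference on chips 2 and 3 minus that on chip 1. The test called 18 of 30 genes lower and 0 higher, where 3.55% of all genes were called lower and 1.61% higher. These were 7 of 13 replication genes (Mcm2, Mcm4, Mcm5, Mcm6, Cdc6, Tyms and Rrm2) and 11 of 17 mitosis genes (Cdk1, Top2a, Mki67, Aurka, Aurkb, Birc5, Plk1, Prc1, Kif2c, Nusap1 and Cdc20). Class medians were -0.75 and -1.00, against 0.02 over all genes. The largest called values were -1.49 ± 0.27 (SE) for Aurkb, -1.25 ± 0.18 for Cdk1 and -1.23 ± 0.21 for Kif2c. Kif23 had -2.81 ± 0.82 and was not called (limma adjusted p 0.0554). With median centring the class medians were -0.60 and -0.82, with 0.12 over all genes, and 0 of the 30 genes were called, with 30 of all 8755. Chip and whatever else differed between these sets of samples cannot be told apart.

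**Figure D3:**
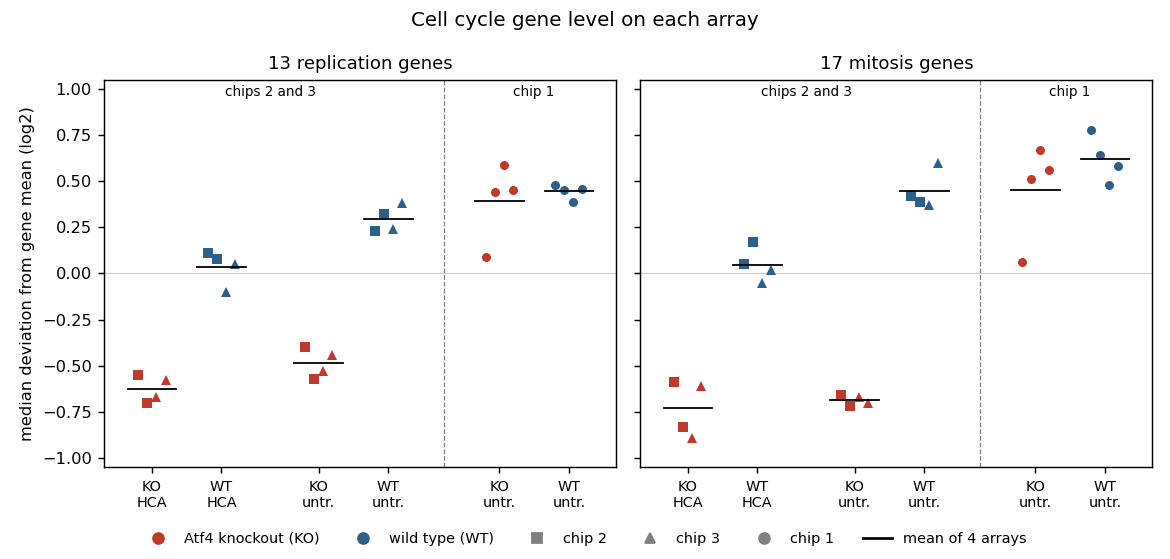
Level of the 13 replication genes (left) and 17 mitosis genes (right) on each of the 24 arrays, as the median over genes of the deviation from the gene's mean (log2). Circles are chip 1, squares chip 2, triangles chip 3, and lines the mean of 4 arrays. Untreated KO arrays lie at -0.72 to -0.40 on chips 2 and 3 and at 0.06 to 0.67 on chip 1.

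Per array, the median deviation of the class from each gene's mean shows the same values in another form. On chips 2 and 3, replication genes stood at -0.57 to -0.40 in untreated KO and 0.23 to 0.38 in untreated WT. Mitosis genes stood at -0.72 to -0.66 in untreated KO and 0.37 to 0.60 in untreated WT. On chip 1, replication genes stood at 0.09 to 0.59 in KO and 0.39 to 0.48 in WT, and mitosis genes at 0.06 to 0.67 in KO and 0.48 to 0.78 in WT. The chip 1 groups overlapped, and KO replicate 1 was the lowest array of its chip in both classes.

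The mitosis level minus the replication level was -0.27 to -0.14 in untreated KO and 0.07 to 0.23 in untreated WT on chips 2 and 3, with no overlap. With HCA it was -0.22 to -0.03 in KO and -0.06 to 0.10 in WT, and on chip 1 it was -0.03 to 0.11 in KO and 0.09 to 0.30 in WT, and both of these pairs overlapped. The mitosis genes were thus further apart between untreated genotypes than the replication genes on chips 2 and 3, by these levels, which are a description with no test.

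Other genes of the same pathways, from lists chosen with earlier results of these data known, moved the same way on chips 2 and 3. Of 28 measured further replication genes, 17 were called lower in untreated KO and 0 higher (median -0.46), where 10.6% of all genes were called lower. Those with the lowest p were Uhrf1, which guides DNA methylation at forks (-1.17 ± 0.11 SE), the single-strand binding subunit Rpa2 (-1.16 ± 0.12) and thymidine kinase Tk1 (-1.43 ± 0.16). Of 24 further mitosis genes, 15 were called lower and 0 higher (median -0.75), led by Cdca3 (-1.20 ± 0.08), the cytokinesis protein Anln (-0.91 ± 0.11) and the chromokinesin Kif4 (-1.16 ± 0.14). On chip 1, 0 genes of these lists were called, with medians of -0.07 and -0.13.

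Among 21 regulators of G1 and inhibitors of cyclin-dependent kinases, 7 were called lower and 1 higher in untreated KO on chips 2 and 3. Of all genes, 10.6% were called lower and 9.79% higher. The regulator called higher was Cdc25a, a phosphatase that activates cyclin-dependent kinases (0.48 ± 0.09 SE). The lowest p went to the inhibitor Cdkn2c (-1.14 ± 0.11 SE), the transcription factor E2f2 (-1.62 ± 0.16) and cyclin D2, Ccnd2 (-0.83 ± 0.10). Ccnd1, cyclin D1, lay at 8.90 to 9.42 in KO and 9.36 to 10.00 in WT and was called (-0.57 ± 0.16 SE, limma adjusted p 0.0187). On chip 1 it was not called, with 9.71 to 11.17 in KO and 9.55 to 9.88 in WT (0.77 ± 0.26 SE), and its genotype difference differed between the chips (-1.34 ± 0.33 SE, limma adjusted p 0.0243). Ccnd2 was not called on chip 1 (-0.03 ± 0.26 SE). Cdkn1a, the p53-responsive inhibitor, was not called between untreated genotypes on chips 2 and 3 (0.12 ± 0.10 SE) or on chip 1 (0.31 ± 0.08 SE, limma adjusted p 0.316).

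Markers of other cells moved along with the cell cycle genes on chips 2 and 3, and their part in the result was not tested. In untreated KO, 6 of 9 measured progenitor markers were called lower, led by Hes5 (-1.91), Slc1a3 (-0.65) and Eomes (-1.21), and their summed linear signal was 6364 to 7887 in KO and 9272 to 10619 in WT. Called lower too were 3 of 3 astrocyte markers (sums of 1028 to 1248 in KO and 2163 to 2360 in WT), 3 of 4 oligodendrocyte lineage markers (1471 to 1564 and 2952 to 3806) and 3 of 7 microglial ones (362 to 488 and 537 to 811). The same held for the 2 measured markers of endothelium and pericytes, Flt1 and Pdgfrb (199 to 224 in KO and 402 to 447 in WT). It also held for 4 of 5 meningeal markers (426 to 525 and 867 to 988). None of these sums overlapped between genotypes, where 10.9% of all single genes had every KO array below every WT array. Of all genes, 10.6% were called lower. Pdgfra stood on both the oligodendrocyte lineage and the meningeal list and entered the counts and sums of each. Mbp and Dcn, the measured members of these lists that were not called, went the other way. Pax6, Fabp7, Gfap, S100b, Olig2, Pecam1, Cdh5 and Col3a1 were among the defining markers detected on no array.

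Markers of neurons showed another picture. In untreated KO 1 of 7 was called, higher (Nefm, 0.51 ± 0.10 SE), where 9.79% of all genes were called higher. The sums of 24708 to 26703 in KO and 23077 to 26795 in WT overlapped. Of 4 excitatory markers, 3 were called higher (Slc17a6 0.69, Fezf2 0.77, Neurod2 0.40) and 1 lower (Slc17a7 -0.92). Of 3 erythroid markers 0 were called, with sums of 1312 to 2252 in KO and 916 to 2614 in WT. On chip 1, 0 markers of any list were called. There the progenitor sums were 6448 to 9007 in KO and 7828 to 9905 in WT, and the microglial sums 313 to 895 in KO and 958 to 1218 in WT.

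**Figure D4:**
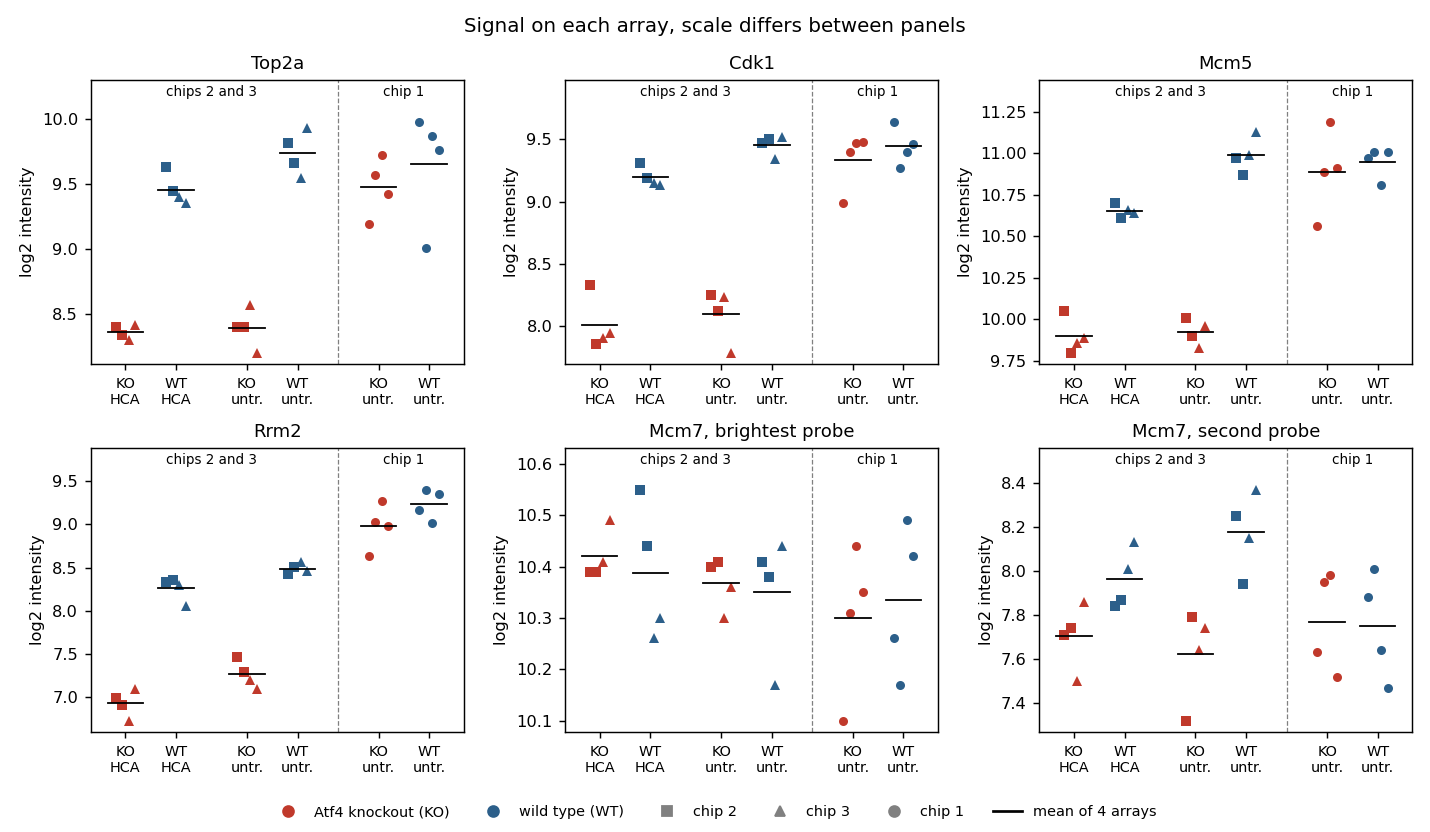
Log2 intensity on each array for Top2a, Cdk1, Mcm5, Rrm2 and both measured probes of Mcm7, with the mean of 4 arrays as a line and a scale of its own in each panel. On chips 2 and 3 the KO arrays lie below the WT arrays except for the brightest Mcm7 probe, where the genotypes overlap at 10.17 to 10.55, and the second Mcm7 probe with HCA, where they overlap too.

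With HCA, on chips 2 and 3, KO neurons again had lower cell cycle RNAs than WT neurons. The test called 27 of 30 genes lower and 0 higher, where 11.1% of all genes were called lower and 10.8% higher. They were 11 of 13 replication genes and 16 of 17 mitosis genes, with median differences of -0.67 and -0.60, against 0.03 over all genes. With the detected probes of each gene averaged, 9 and 14 were called, and Mcm6, Tyms, Mki67 and Cdc20 were not. The KO arrays lay below all WT arrays for 23 genes, a pattern found in 11.2% of all genes. Within chip 2 the medians were -0.73 and -0.62, and within chip 3 they were -0.58 and -0.67. With median centring the calls were 6 and 6, where 358 of all 8755 genes were called lower. Of all called genes, 93.2% were then lower in KO, against 50.8% with quantile normalization.

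The call of 4 genes with HCA rested on the brightest probe. For Cdc20 that probe had 8.18, 8.20, 7.99 and 8.48 in KO and 8.51, 8.88, 8.81 and 8.99 in WT (-0.59 ± 0.12 SE, limma adjusted p over probes 0.00285). A second probe of Cdc20 had 6.57, 6.90, 7.07 and 6.92 in KO and 6.32, 6.89, 7.11 and 7.32 in WT (-0.04 ± 0.20 SE, 0.915), and a further one differed by -0.38 ± 0.23 (SE, 0.283). The groups were apart on the brightest probe and overlapped on the others. For Mki67 the brightest probe differed by -0.60 ± 0.13 (SE, limma adjusted p over probes 0.00503) and the dim one by 0.01 ± 0.15 (SE, 0.980). For Tyms the differences were -0.41 ± 0.10 (SE, limma adjusted p over probes 0.0141), -0.30 ± 0.21 (SE, 0.349) and 0.38 ± 0.27 (SE, 0.370). For Mcm6 they were -0.50 ± 0.14 (SE, limma adjusted p over probes 0.0196) and -0.58 ± 0.44 (SE, 0.407), of like size with a wider error on the second probe. Neither probe of Mcm7 was called with HCA (0.03 and -0.26), while the 3 of Birc5 and the 2 of Rrm2 all were.

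Rrm2 had 6.99, 6.91, 6.73 and 7.10 in KO with HCA and 8.33, 8.36, 8.30 and 8.06 in WT with HCA (-1.33 ± 0.09 SE, limma adjusted p 3.55e-07). Cdk1 had 8.33, 7.86, 7.91 and 7.95 in KO and 9.31, 9.19, 9.15 and 9.13 in WT (-1.18 ± 0.11 SE, limma adjusted p 3.69e-06). Top2a had 8.40, 8.34, 8.30 and 8.41 in KO and 9.63, 9.45, 9.40 and 9.35 in WT (-1.10 ± 0.10 SE, limma adjusted p 3.53e-06). None of the 3 overlapped between genotypes. Mcm5 had 10.05, 9.80, 9.86 and 9.89 in KO and 10.70, 10.61, 10.66 and 10.64 in WT (-0.75 ± 0.08 SE, limma adjusted p 1.04e-05), and Mcm3, detected on 0 KO and 4 WT arrays, was at least 1.21-fold lower.

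Mcm7 (0.03 ± 0.07 SE), Cdt1 (-0.23 ± 0.10) and Bub1 (-0.07 ± 0.31) were not called with HCA. Pcna (-0.56 ± 0.18, limma adjusted p 0.0407) and Foxm1 (-0.78 ± 0.26, limma adjusted p 0.0478) were called near the threshold, and neither was called without HCA. Of the further pathway genes, 12 of 28 replication genes were called lower and 1, the origin subunit Orc5, higher (0.64 ± 0.12 SE). Among all genes, 11.1% were called lower and 10.8% higher with HCA. The test called 12 of 24 further mitosis genes lower. Among the 21 G1 regulators and inhibitors, 8 were called lower and 1, Cdc25a, higher (0.53 ± 0.09 SE). The lower ones included Ccnd2 (-0.97 ± 0.10 SE), Ccnd1 (-0.52 ± 0.16) and Cdkn1a (-0.44 ± 0.10). Markers of other cells were again lower in KO, and their part was not tested. Called lower were 4 of 9 progenitor, 3 of 3 astrocyte and 2 of 4 oligodendrocyte lineage markers. So were 5 of 7 microglial, 2 of 2 endothelial or pericyte and 3 of 5 meningeal markers. The progenitor sums were 5831 to 7327 in KO and 7594 to 8642 in WT. Of 7 neuron markers, 1 was called lower (Tubb3, -0.41 ± 0.14 SE) and 1 higher (Nefm, 0.74 ± 0.10). Of 4 excitatory markers, 3 were called higher (Fezf2 1.02, Slc17a6 0.49, Neurod2 0.42) and 1 lower (Slc17a7 -0.75).

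HCA itself went with lower cell cycle RNAs in WT neurons. The test of HCA against untreated in WT called 8 of 30 genes lower and 0 higher, where 0.902% of all genes were called lower and 0.879% higher. They were 2 of 13 replication genes, Mcm2 (-0.45 ± 0.11 SE) and Mcm5 (-0.34 ± 0.08), and 6 of 17 mitosis genes. These 6 were Cdc20 (-0.70 ± 0.12), Plk1 (-0.59 ± 0.10), Kif2c (-0.58 ± 0.12), Birc5 (-0.56 ± 0.10), Prc1 (-0.47 ± 0.08) and Cenpa (-0.44 ± 0.08), with limma adjusted p between 0.00771 and 0.0255. Dimmer probes of Cdc20 (-0.65 and -0.75) and 1 of the 3 of Birc5 (-0.44) were not called over probes. The medians were -0.23 for replication and -0.44 for mitosis genes, against -0.01 over all genes.

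By array, Cdc20 had 8.51, 8.88, 8.81 and 8.99 in WT with HCA and 9.27, 9.41, 9.60 and 9.72 in untreated WT. Plk1 had 9.35, 9.25, 9.25 and 9.43 with HCA and 9.73, 9.99, 9.98 and 9.93 untreated. Neither overlapped, and 16 of the 30 genes had every HCA array below every untreated array, a pattern found in 4.36% of all genes. Within chip 2 the class medians were -0.14 and -0.35, and within chip 3 they were -0.33 and -0.46. The calls were not stable: with any 1 of the 16 arrays left out, 0 or 1 replication genes and 3 to 7 mitosis genes were called, and with median centring 0 and 0. Of the further pathway genes, Tk1 (-0.74 ± 0.16 SE), the polymerase subunit Pold2 (-0.31 ± 0.07) and Cdca3 (-0.55 ± 0.08) were called lower. Cdkn1a moved the other way, with 9.63 to 10.09 in WT with HCA and 9.27 to 9.46 in untreated WT (0.47 ± 0.10 SE, limma adjusted p 0.0307). Of 9 progenitor markers, 2 were called lower as well, Hes5 (-1.30 ± 0.19) and Slc1a3 (-0.42 ± 0.09). So were 1 of 4 oligodendrocyte lineage markers, Olig1 (-0.75 ± 0.13), and 1 of 4 excitatory neuron markers, Fezf2 (-0.52 ± 0.09). No marker of the other cell lists was called. The list medians ran from -0.30 for progenitors to 0.44 for microglia, and the part of these markers was not tested.

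In KO neurons, HCA against untreated called 0 of 30 genes, where 0.0343% of all genes were called lower and 0 higher. The medians were -0.06 and -0.07, against 0.00 over all genes, and 2 genes, Rrm2 and Mcm2, had an unadjusted limma p under 0.05. Rrm2 differed most (-0.33 ± 0.09 SE, limma adjusted p 0.524), with the values by array given above for KO with HCA and for untreated KO on chips 2 and 3. Top2a (-0.03 ± 0.10 SE), Cdk1 (-0.09 ± 0.11) and Mcm5 (-0.02 ± 0.08) stood within 1 SE of 0.

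**Figure D5:**
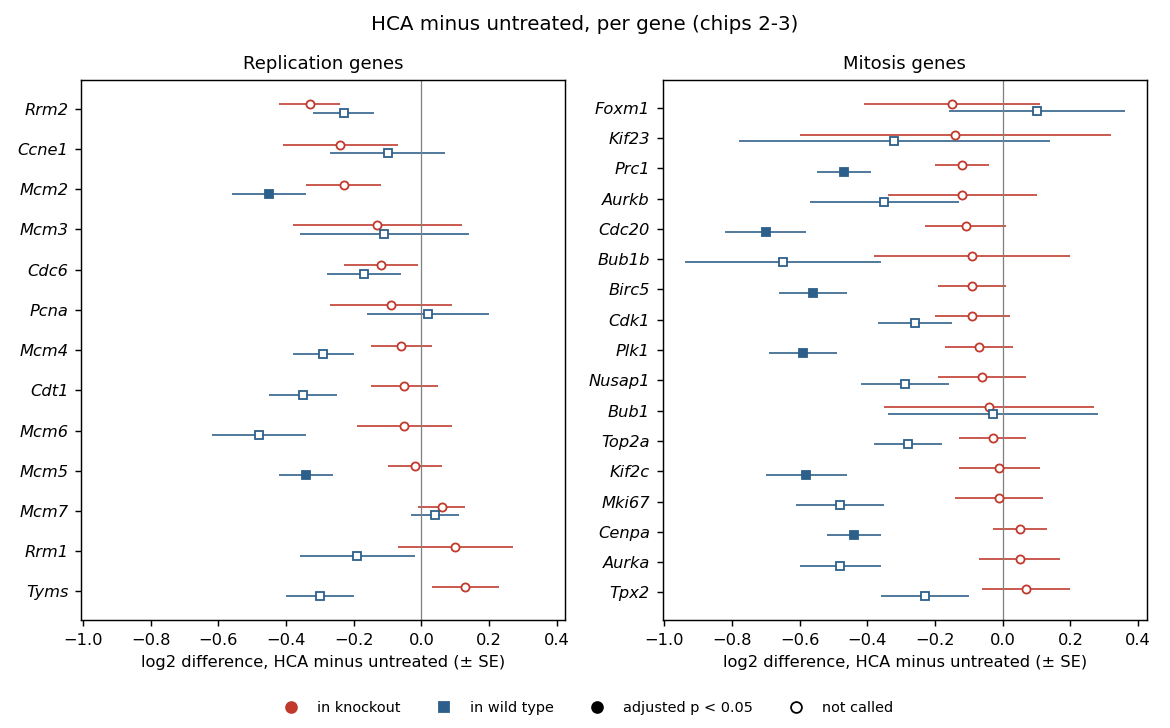
Log2 difference, HCA minus untreated, of each measured gene on chips 2 and 3, with bars of 1 SE: circles in KO and squares in WT (limma, 4 HCA and 4 untreated arrays in each). Filled symbols passed adjusted p under 0.05. In WT 8 genes were called, down to -0.70 for Cdc20, and in KO none was.

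The difference between these responses, KO minus WT, was tested by the interaction term, and 0 of 30 genes were called, where 0.263% of all genes were called lower and 0.0114% higher. The medians were 0.22 for replication and 0.35 for mitosis genes, against 0.00 over all genes. At an unadjusted limma p under 0.05 there were 12 of the 30 genes, none of them with a negative value, and 631 of all 8755 genes. The lowest adjusted p belonged to Cenpa (0.49 ± 0.12 SE, limma adjusted p 0.177) and Plk1 (0.52 ± 0.14 SE, 0.261). Cdkn1a was not called (-0.57 ± 0.14 SE, limma adjusted p 0.203), while the progenitor marker Hes5 was (1.57 ± 0.26 SE, 0.0154). A different response in the genotypes was thus not shown for any of the 30 cell cycle genes. When all 24 arrays entered a single fit with a chip term, the medians turned to -0.18 and -0.06 and 0 genes were called. That fit assumes the same untreated genotype difference on every chip, which differed for 18 of the 30 genes in the direct test above. It therefore cannot decide on the difference in response. The comparisons on chips 2 and 3 share arrays, so their values are not independent of each other.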

How the data were processed

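RNA from the 24 samples was read on 1 array each, and groups, replicate numbers and chips came from the labels. Per the file headers, BeadStudio 1.5.1.3 averaged the beads of each of 24048 probes to an intensity that is linear and not normalized, which the authors deposited. Per the file headers it also gave a detection score from 0 to 1, taken here as 1 minus a detection p. The authors' deposited log2 matrix of 23983 probes, made with limma per the submitters' processing notes in a version not given in the sources used here, equalled quantile-normalized log2 raw signals to within 5e-14 and served as an alternative. Another 144 per-array columns were not used.

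Background mean and SD were read for each array from the detection quantiles, signals were corrected by normexp (offset 16), quantile-normalized over 24 arrays and put on the log2 scale with limma 3.58.1 in R 4.3.3. A probe was kept if detected (p under 0.05) on 4 arrays or more, which 10662 were, and the brightest one stood for its gene. This left 8755 genes. Names came from GEO's platform annotation, which gave 20917 probes 1 gene, 20905 of them found in the RefSeq table of GRCm38.p6. Entrez numbers carried in probe IDs equalled the annotation for 7941 of 8213, or 96.7%.

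Chip 1 (8 arrays) and chips 2 and 3 (16 arrays, with a chip term) were fitted apart with limma's lmFit and eBayes, and a fit of all 24 arrays with a mean for each group on each chip tested the difference between them. Adjusted p-values are Benjamini-Hochberg over all genes, except those over probes, which cover all 10662. A fold for a gene detected on no array of a group is a lower bound, computed with the signal of the dimmest detected probe of each array. Counts and medians of the 2 classes carry no test. The number of arrays limits the precision. The procedure was tested on simulated data.

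The members and lists were chosen with earlier results of these data known. Values by array are given for the 4 replication and 6 mitosis genes with the lowest p between untreated genotypes on chips 2 and 3. They are also given for genes whose probes differed in call. From other lists up to 3 genes by p are given. Atf4, Cdkn1a, Ccnd1 and Ccnd2 were chosen whatever their value, and are not given for every comparison. Other values by array were chosen after they were seen. Alternatives were other background corrections, normalization, deposited values, filters, probe averages, fits, array weights, a replicate block and leaving out each array.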

Additional observations from a re-analysis of the deposited data

Results flagged for a closer look

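The untreated genotype difference, KO minus WT, differed between chips 2 and 3 and chip 1 for 18 genes by a direct test (limma, adjusted p under 0.05 over 8755 genes). On the log2 scale, the replication genes differed by -0.80 (Mcm2), -0.69 (Mcm4), -1.00 (Mcm5), -0.93 (Mcm6), -0.98 (Cdc6), -0.75 (Tyms) and -0.97 (Rrm2). The mitosis genes differed by -1.25 (Cdk1), -1.17 (Top2a), -1.03 (Mki67), -1.00 (Aurka), -1.49 (Aurkb), -0.92 (Birc5), -0.84 (Plk1), -0.81 (Prc1), -1.23 (Kif2c), -1.01 (Nusap1) and -0.82 (Cdc20). With median centring, 0 of these were called.

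Within groups of 4 arrays, 72 groups were checked for an array far from the other 3, over both class levels and the 10 genes given by array. Chance gives about 1 such array in 20 groups, and 6 were found. In untreated KO on chip 1, replicate 1 was low for Cdk1 (8.99) and Cenpa (11.07). In KO with HCA, replicate 4 was high for Mcm2 (8.22). In WT with HCA, replicate 1 was low for Birc5 (8.77). In untreated WT, replicate 8 on chip 3 was high for Prc1 (11.53) and replicate 2 on chip 1 was high for Birc5 (9.96).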

How the results depend on the processing

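No gene called in a comparison changed sign there under any alternative run. Class medians, which carry no test, did. The interaction medians were -0.18 and -0.06 in the 24-array fit, against 0.22 and 0.35. Without KO replicate 1, the chip 1 medians were 0.01 and 0.04, against -0.05 and -0.08. Without KO HCA replicate 3, the mitosis median for HCA in KO was 0.00, against -0.07. Counts below are replication and mitosis genes called lower. Untreated on chips 2 and 3 (11 and 15), the replication count was 7 with median centring, 7 in a fit of all 24 arrays with a chip term, 5 on chip 2 alone and 6 on chip 3 alone. With HCA (11 and 16), the counts were 6 and 6 with median centring, 5 and 4 on chip 2 alone and 4 and 5 on chip 3 alone. For HCA in WT (2 and 6), they were 0 and 0 with median centring, in the fit of all 24 arrays, on chip 2 alone and on chip 3 alone, and 0 and 2 with only the 2 groups compared. There the replication count was 4 with neqc background, 0 without the detection filter and 1 without a chip term. The 24-array fit assumes the same genotype difference on each chip, and read in place of chip 1 alone it called 7 and 13, against 0 and 0. For the difference between chips (7 and 11), median centring gave 0 and 0. Averaging the detected probes of each gene gave 9 and 14 with HCA and 5 and 11 between chips. Fits of 1 chip have fewer arrays, and the cause of the other changes was not tested. Median centring gave fewer calls among all genes as well, 291 against 1787 untreated on chips 2 and 3, 384 against 1919 with HCA, 14 against 156 for HCA in WT and 30 against 452 between chips. Leaving out each array gave 10 to 12 and 14 to 15 untreated on chips 2 and 3, 9 to 11 and 13 to 16 with HCA, 0 to 1 and 3 to 7 for HCA in WT, 6 to 8 and 10 to 13 between chips, and 0 and 0 on chip 1. Deviations of same-numbered samples from their group means had correlations of -0.23 to 0.21, and of -0.12 to 0.16 on chip 1. On chips 2 and 3 each group had 2 arrays per chip, whose deviations mirror each other. The check there cannot decide on pairing, and whether the numbers pair samples is not known. With replicate number as a block, 26 genes were called untreated on chips 2 and 3, 25 with HCA, 0 on chip 1 and 0 in the interaction. With array weights 1 gene was called higher in the interaction, where 0 were called otherwise. Single calls lost most often were Mcm2 (18 of 29 alternatives) and Mcm5 (17 of 29) for HCA in WT, and Foxm1 (16 of 30) and Pcna (14 of 30) between genotypes with HCA. Signal near background limits Bub1, Ccne1 and Mcm3.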
